A study of Mus musculus with 9 samples.

Results

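This account covers the later response of a folliculostellate cell line to NECA: the 3 arrays of cells given 10 µM NECA for 120 min were compared with the 3 arrays of cells that received no treatment, 6 of the 9 Affymetrix expression arrays of the study. Arrays were chosen by their titles, with no measured value in the choice. The cells are TtT/GF, a mouse line described as pituitary folliculostellate, so all cultures come from 1 line; the culture medium held heat-inactivated serum. NECA (5'-N-ethylcarboxamidoadenosine) is a stable adenosine analog that activates adenosine receptors. The other 3 arrays were of cells given 10 µM NECA for 30 min, and they entered the filter, the choice of probe set and the shared estimate of the spread, with their values given where a gene's time course is described. The submitters' design calls the samples of a group replicate cultures. The labels name neither a vehicle nor a time for the untreated cells, so what NECA did and what handling or fresh medium did cannot be told apart.

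Folliculostellate cells are the non-hormonal cells of the anterior pituitary, joined by gap junctions, and are known as a local source of interleukin-6 and vascular endothelial growth factor. Adenosine receptors that couple to Gs raise cyclic AMP (cAMP), which activates protein kinase A and, through it, the transcription factor CREB. CREB target genes are usually induced quickly, and several of their products, such as repressor forms of Crem, phosphodiesterases and regulators of G protein signalling, then limit the response.

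After 120 min, 144 of the 7851 tested probe sets were higher than in untreated cells (1.83%) and 121 were lower (1.54%), 3.38% in all, by limma with a Benjamini-Hochberg adjusted p under 0.05. A probe set is the group of probes on the array that reports on 1 transcript. Counted by named gene, 116 of 5897 rose (1.97%) and 103 fell (1.75%), 3.71% in all. At an unadjusted p under 0.05, 504 probe sets were higher and 701 lower. Changes are differences of log2(signal + 7.93) with their standard error (SE), so 1 unit is a doubling on that scale, and folds of genes with signals near the offset are understated. Of the called genes, 60 rose and 52 fell at least 2-fold, 15 and 12 at least 4-fold, and 6 and 5 at least 8-fold. All called probe sets had groups of arrays that did not overlap, as did 25.3% of all tested probe sets. Where a lack of overlap is given for a called gene, it is a description and adds no support to the call. The median change of all tested probe sets was -0.043.

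**Figure D1:**
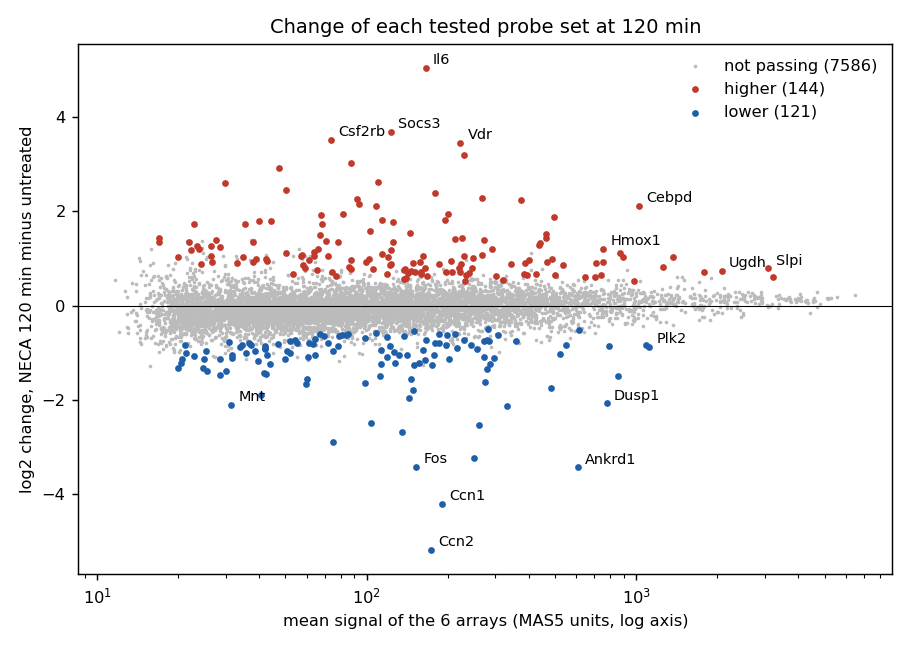
Each point is a tested probe set, with the mean signal of the 6 arrays (MAS5 units, log axis) on the x axis and the log2 change at 120 min against untreated on the y axis. The 144 probe sets called higher (red) and the 121 called lower (blue) lie on both sides of 0 over the range of signals, with Il6 at the top (5.04) and Ccn2 at the bottom (-5.18).

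The call of 70 of the 116 genes that rose and 45 of the 103 that fell was kept in all 9 fits that left out 1 array. Genes described here are mostly among these, and for any other the arrays whose omission ended its call are given, with U1 to U3 for the untreated arrays, E1 to E3 for those of NECA at 30 min and T1 to T3 for those at 120 min. Without U2 or T3 the probe sets called higher numbered 88 and 95, and without U1, U2 or T3 those called lower numbered 60, 70 and 79. The ratio of the 3' to the 5' Gapdh probe set, a sign of RNA quality, was 0.995 ± 0.028 in untreated and 0.947 ± 0.029 in treated cells (SD, n = 3 each; two-sided exact permutation p = 0.2, where 3 against 3 cannot go below 0.1). With that ratio as a covariate 87 probe sets were called higher and 64 lower; where this ended the call of a gene that was kept without any 1 array, its adjusted p is given.

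Of 20 folliculostellate markers on the array, 15 were above the filter level of 20.5 in all untreated arrays, among them S100b with signals of 65.4, 53.4 and 54.8, while Sox2, Aldh1a2, Fgf2, Vim and Krt8 were not. Their summed signal ranged from 15014 to 16078 in untreated and from 15533 to 17526 in treated arrays. For 15 markers of pituitary hormone cells the sums were 441 to 485 and 323 to 452, for 12 endothelial markers 600.3 to 757 and 618 to 711, and for 15 macrophage and leukocyte markers 997 to 1044 and 1060 to 1294. The last was mostly Cd14 and Cd68, with Ptprc, Itgam and Aif1 near 0. Of these other markers, 7 of 15, 1 of 12 and 5 of 15 were also above the filter level in all untreated arrays. Among them the hormone genes Lhb (96.8, 114.9 and 94.1) and Gh (79.6, 86.5 and 93.2) had higher signals than S100b. The filter level thus does not separate the cell types. Of the 33 tested genes on these 4 lists 0 passed the test in either direction. The gap junction gene Gja1, with signals of 1267, 1261 and 876 untreated and 1592, 1839 and 1699.8 treated, did not pass (0.61 ± 0.15, adjusted p = 0.0527).

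The interleukin-6 gene and its feedback inhibitor Socs3 were higher at 120 min, while most genes of the JAK-STAT list did not pass. Il6, a cytokine that acts through gp130 and STAT3, had signals of 2.79, 1.08 and 2.76 in untreated and 276, 407 and 304 in treated cells, a change of 5.04 ± 0.22 (adjusted p = 1.16e-07). Socs3, which blocks receptors of this type as a feedback inhibitor, went from 16.0, 7.46 and 10.1 to 209, 258 and 238 (3.69 ± 0.21, adjusted p = 6.37e-07), and its other probe set rose by 2.11. For both genes each treated array was at least 10 times the highest untreated array.

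Among the C/EBP factors, which drive acute-phase and cytokine genes, Cebpd had 403, 346 and 395 in untreated and 1569, 1733 and 1726 in treated cells (2.12 ± 0.14, adjusted p = 2.67e-06). Cebpb moved less, from 482, 593 and 563 to 1084, 1177 and 1306 (1.11 ± 0.14, adjusted p = 0.000773). Neither gene had overlapping groups, as held for every called probe set. Ptpn1, a tyrosine phosphatase that acts on Janus kinases, rose by 1.204 ± 0.16, whereas Pim1, a survival kinase that STAT proteins induce, fell from 352, 320.3 and 363 to 210.5, 182 and 211 (-0.76 ± 0.13, adjusted p = 0.0055), though its other probe set, at -0.62, did not pass. Stat3 itself rose by 0.54 ± 0.12 (adjusted p = 0.0307), a call lost without any 1 untreated or 120 min array or E1 (adjusted p up to 0.143), while its other probe set rose by 0.88 (adjusted p = 0.00416).

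Of the 26 tested JAK-STAT and C/EBP genes, 5 rose, 2 fell and 19 did not pass, with a median of -0.01. On the list of cytokine and chemokine ligands Il6 was the 1 of 13 that rose. The chemokine gene Cxcl5 fell from 1111, 1085 and 869 to 444, 574 and 688 (-0.85 ± 0.17, adjusted p = 0.0157), and this call was lost without U1, U2 or T1 (adjusted p up to 0.0846). Bcl3, a member of the IkB family that acts in the nucleus with NF-kB subunits, rose from 55.1, 43.3 and 22.7 to 484, 371 and 406 (3.20 ± 0.24, adjusted p = 6.04e-06). Of the other 16 NF-kB genes tested only Ptgs2, described with the prostaglandin genes, also passed.

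**Figure D2:**
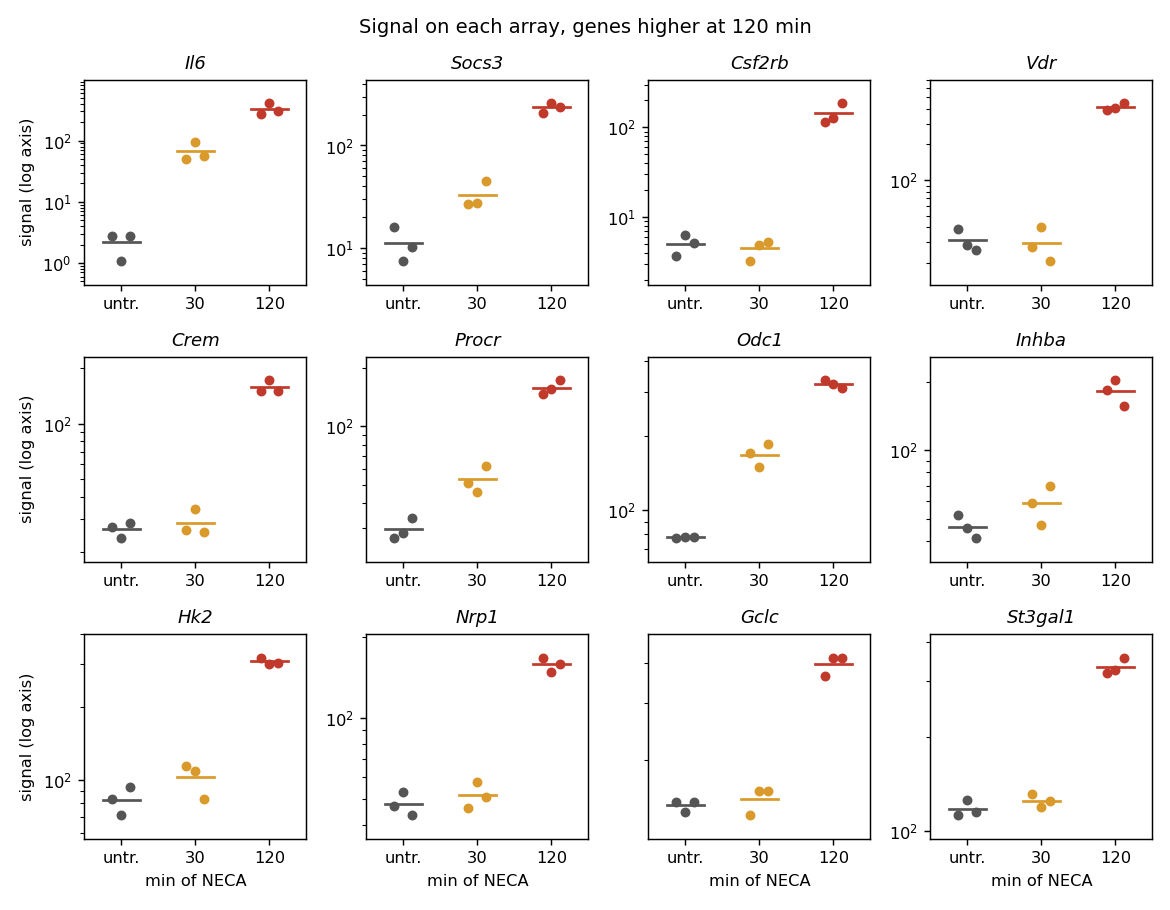
Deposited signal (log axis, scale set for each gene) on every array of untreated cells (grey), cells with NECA for 30 min (orange) and for 120 min (red); points are arrays and bars are means of 3. For all 12 genes the 3 red points lie above the 3 grey points, from Il6 (276 to 407 against 1.08 to 2.79) to St3gal1 (318 to 356 against 113 to 126).

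Several receptor genes rose from low signals. Csf2rb, the shared signalling chain of the receptors for GM-CSF, interleukin-3 and interleukin-5, went from 3.67, 6.26 and 5.22 to 116, 128 and 185 (3.52 ± 0.22, adjusted p = 1.43e-06). Its close copy Csf2rb2, the interleukin-3 receptor chain of the mouse, went from 17.9, 28.2 and 9.29 to 59.1, 60.4 and 51.5 (1.36 ± 0.25, adjusted p = 0.0085). The genes are near-identical, so probes of one may also report the other. Ackr3, an atypical receptor that takes up the chemokine CXCL12, rose from 1.32, 1.83 and 5.27 to 59.4, 49.98 and 61.5 (2.61 ± 0.22, adjusted p = 1.91e-05).

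Of the 23 cytokine receptor genes tested, 4 rose and 2 fell. The fourth rise was Il4ra (0.72 ± 0.17), lost without any 1 untreated array, E1, or T2 or T3 (adjusted p up to 0.146). The falls were in Lifr (-1.09 ± 0.24) and Il6ra (-0.60 ± 0.14), receptor chains for cytokines of the interleukin-6 family. Lifr lost its call without any 1 untreated array or T2 or T3 (adjusted p up to 0.125), and its other probe set, at -0.04, did not pass. Il6ra lost its call without any 1 untreated or 120 min array or E1 (adjusted p up to 0.156).

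Among regulators of receptor signalling, Ramp3 and Rgs2 rose while Rgs3 fell. Ramp3, an accessory protein that turns the calcitonin receptor-like receptor into an adrenomedullin receptor, went from 9.96, 8.32 and 21.9 to 188, 172 and 124 (3.02 ± 0.27, adjusted p = 3.06e-05). Rgs2, which speeds GTP hydrolysis by G protein alpha subunits, went from 2.81, 4.37 and 8.01 to 80.01, 105 and 83.3 (2.92 ± 0.20, adjusted p = 2.63e-06). Rgs3 fell from 219, 300.2 and 231 to 91.9, 106 and 102 (-1.25 ± 0.18, adjusted p = 0.00202). The other 9 of the 12 regulators tested did not pass.

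Vdr, the nuclear receptor for vitamin D, had signals of 38.8, 28.3 and 25.7 in untreated and 390.3, 409 and 445 in treated cells (3.46 ± 0.19, adjusted p = 6.37e-07), and its other probe set rose by 1.37. At 30 min Vdr was at -0.08 against the same untreated arrays. Of the 22 nuclear receptors and coregulators tested, 2 rose, 3 fell and 17 did not pass. The second rise was Cited1, a CBP-binding coregulator, with a change of 1.13 ± 0.19 (adjusted p = 0.00472).

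Its relative Cited2 fell from 818, 764 and 532 to 319, 365 and 327 (-1.03 ± 0.19, adjusted p = 0.00997), a call lost without U1 or U2 (adjusted p up to 0.0626). Pparg, a lipid-sensing nuclear receptor, and Nr1d1, a clock repressor, also fell (-0.84 ± 0.19 and -0.64 ± 0.15). The call of Pparg was lost without U1 or U2, E1 or E2, or T2 or T3 (adjusted p up to 0.189), and that of Nr1d1 without any 1 untreated or 120 min array (adjusted p up to 0.181).

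Genes that cAMP and CREB are known to induce moved in both directions. Of 16 tested, 10 rose, 4 fell and 2 did not pass, with a median of 1.09 against -0.04 for all named genes. The lowest change on this list was -2.07. It thus does not hold Fos, Egr1, Ier2 or Btg2, which fell further, and its count does not cover every gene of this kind. Crem, whose short forms repress CREB targets, had 27.3, 23.8 and 28.6 in untreated and 150.0, 172 and 150.0 in treated cells (2.26 ± 0.15, adjusted p = 1.9e-06), and its other probe set rose by 2.46. Nfil3, a leucine zipper repressor, went from 53.5, 49.7 and 52.1 to 329, 293 and 300.4 (2.40 ± 0.16, adjusted p = 1.9e-06).

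Odc1, the first enzyme of polyamine synthesis, showed little spread, with 77.2, 77.7 and 78.1 in untreated and 334, 322 and 311 in treated cells (1.95 ± 0.12, adjusted p = 1.43e-06). Gem, a GTPase that inhibits calcium channels, went from 83.2, 60.2 and 59.4 to 176, 166 and 206 (1.34 ± 0.16, adjusted p = 0.000354). The orphan nuclear receptor gene Nr4a2 rose from 12.8, 14.7 and 15.3 to 40.7, 35.3 and 39.3 (1.06 ± 0.17, adjusted p = 0.00303); its other probe set, at 0.53, did not pass. Its relative Nr4a1, with 87.2, 82.6 and 98.6 in untreated and 146, 186 and 117 in treated cells, passed at 0.67 ± 0.16 (adjusted p = 0.0423), but not without any 1 untreated array, E1, or T1 or T2 (adjusted p up to 0.184).

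The 4 members that fell were Dusp1, Sgk1, Per1 and Bdnf, described below with their families. On a list of 24 genes of the cAMP machinery (such as adenylyl cyclases, phosphodiesterases and protein kinase A subunits), 2 rose, Crem and the phosphodiesterase gene Pde8a (0.62 ± 0.13), and 1 fell, the phosphodiesterase gene Pde1b (-0.62 ± 0.15). Pde8a lost its call without U1 or U2 or any 1 array of the 120 min group (adjusted p up to 0.108), and Pde1b without any 1 untreated array, E1, or T1 or T2 (adjusted p up to 0.203). Of 8 genes that handle adenosine, 0 passed, and their changes lay between -0.24 (Ada, adenosine deaminase) and 0.38 (Entpd2, an ectonucleotidase). Adenosine receptor genes were not analysed here.

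Most genes for secreted and surface proteins of blood vessels did not pass. Of 10 coagulation genes 1 rose, 1 fell and 8 did not pass, with a median of -0.02. Of 17 vascular growth factors and receptors 2 rose, 1 fell and 14 did not pass, also with a median of -0.02. Among all named genes 1.97% rose and 1.75% fell. Procr, the endothelial receptor for protein C, went from 26.5, 28.1 and 33.6 to 147, 155 and 172 (2.15 ± 0.15, adjusted p = 2.86e-06). Thbd, which encodes thrombomodulin of the same anticoagulant pathway, did not pass on the probe set that represents it (0.56 ± 0.18), while another, with 12.4, 14.3 and 19.8 in untreated and 76.1, 73.2 and 69.5 in treated cells, rose by 1.80. In contrast F3, the tissue factor gene that starts coagulation, fell from 163, 109 and 143 to 12.9, 9.12 and 12.7 (-2.90 ± 0.18, adjusted p = 1.24e-06).

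Nrp1, a co-receptor of vascular endothelial growth factor, had 46.9, 53.1 and 43.4 in untreated and 168, 148 and 159 in treated cells (1.58 ± 0.13, adjusted p = 1.91e-05), though its other probe set, at 0.31, did not pass. Vegfa, the growth factor itself, went from 34.6, 42.3 and 34.0 to 94.3, 85.4 and 90.6 (1.13 ± 0.20, adjusted p = 0.00599), with an adjusted p of 0.0857 under the Gapdh covariate. Neither gene had overlapping groups, as held for every called probe set. Adm, a vasodilator peptide, fell from 57.4, 62.4 and 66.4 to 28.1, 32.6 and 35.2 (-0.81 ± 0.16, adjusted p = 0.017), a call lost without U2 or U3 or T1 or T2 (adjusted p up to 0.0716).

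Inhba, the subunit of activin A, a ligand that acts on gonadotrophs, went from 51.6, 45.3 and 41.0 to 186, 204 and 158 (1.82 ± 0.16, adjusted p = 3.03e-05). Of 26 genes of the TGF-beta, BMP and activin pathway, 3 rose and 1 fell. Tsc22d1, a leucine zipper factor induced by TGF-beta, rose by 1.03 ± 0.16, and the repressor gene Tgif1 fell by 1.09 on the log2 scale (SE 0.19, adjusted p = 0.00719, and 0.0966 with the Gapdh covariate). The inhibitor of differentiation Id2 rose by 0.69 ± 0.14, lost without U2 or U3 or T1 or T3 (adjusted p up to 0.0932). For Bmp4 the representing probe set (-0.49 ± 0.16) did not pass, but another fell by 1.89, from 94.1, 44.1 and 68.6 to 15.5, 12.6 and 8.70.

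Among lipid mediator genes, Sphk1, the sphingosine kinase, went from 6.23, 7.37 and 4.90 to 30.5, 41.1 and 47.5 (1.74 ± 0.22, adjusted p = 0.000637). Ptgs2, the inducible cyclooxygenase, went from 18.9, 17.0 and 12.1 to 42.1, 33.5 and 35.9 (0.92 ± 0.20, adjusted p = 0.0284). Ptger4, a Gs-coupled prostaglandin E receptor, fell from 36.1, 24.5 and 33.9 to 2.86, 11.9 and 9.98 (-1.32 ± 0.26, adjusted p = 0.0161). The last pair was less stable: Ptgs2 lost its call without any 1 untreated or 120 min array (adjusted p up to 0.0914), and Ptger4 without U1 or U3 (adjusted p up to 0.0861).

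Of 5 tested genes of hyaluronan synthesis and binding, 3 rose and 0 fell (median 0.74), against 1.97% and 1.75% of all named genes. Their changes ran from -0.11 to 1.77, and with the Gapdh covariate 2 of the 5 were higher. Vcan, a proteoglycan that binds hyaluronan, went from 64.7, 70.2 and 29.3 to 188, 184 and 214 (1.77 ± 0.26, adjusted p = 0.00186). Ugdh, which makes UDP-glucuronic acid, went from 1602, 1567 and 1493 to 2399, 2842 and 2565 (0.74 ± 0.11, adjusted p = 0.00241). Both had groups that were well apart. Has2, a hyaluronan synthase, rose from 43.5, 46.9 and 32.7 to 79.3, 64.6 and 88.5 (0.80 ± 0.19, adjusted p = 0.0402), lost without any 1 untreated array, E1, or T1 or T3 (adjusted p up to 0.173).

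A pair of enzymes of the hexosamine pathway, which supplies the other sugar of hyaluronan and also glycosylation in general, were among the 30 largest rises but on no list. Gfpt2, which commits fructose 6-phosphate to this pathway, went from 112, 102 and 123 to 278, 286 and 380.3 (1.42 ± 0.17, adjusted p = 0.000402). Uap1, which makes UDP-N-acetylglucosamine, went from 18.7, 5.86 and 13.4 to 68.1, 58.5 and 48.4 (1.73 ± 0.26, adjusted p = 0.00252). St3gal1, a sialyltransferase, rose from 113, 126 and 115 to 318, 325 and 356 (1.44 ± 0.12, adjusted p = 1.54e-05). Of 41 matrix and integrin genes Vcan was the only one that passed, a share near the 3.71% of all named genes.

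**Figure D3:**
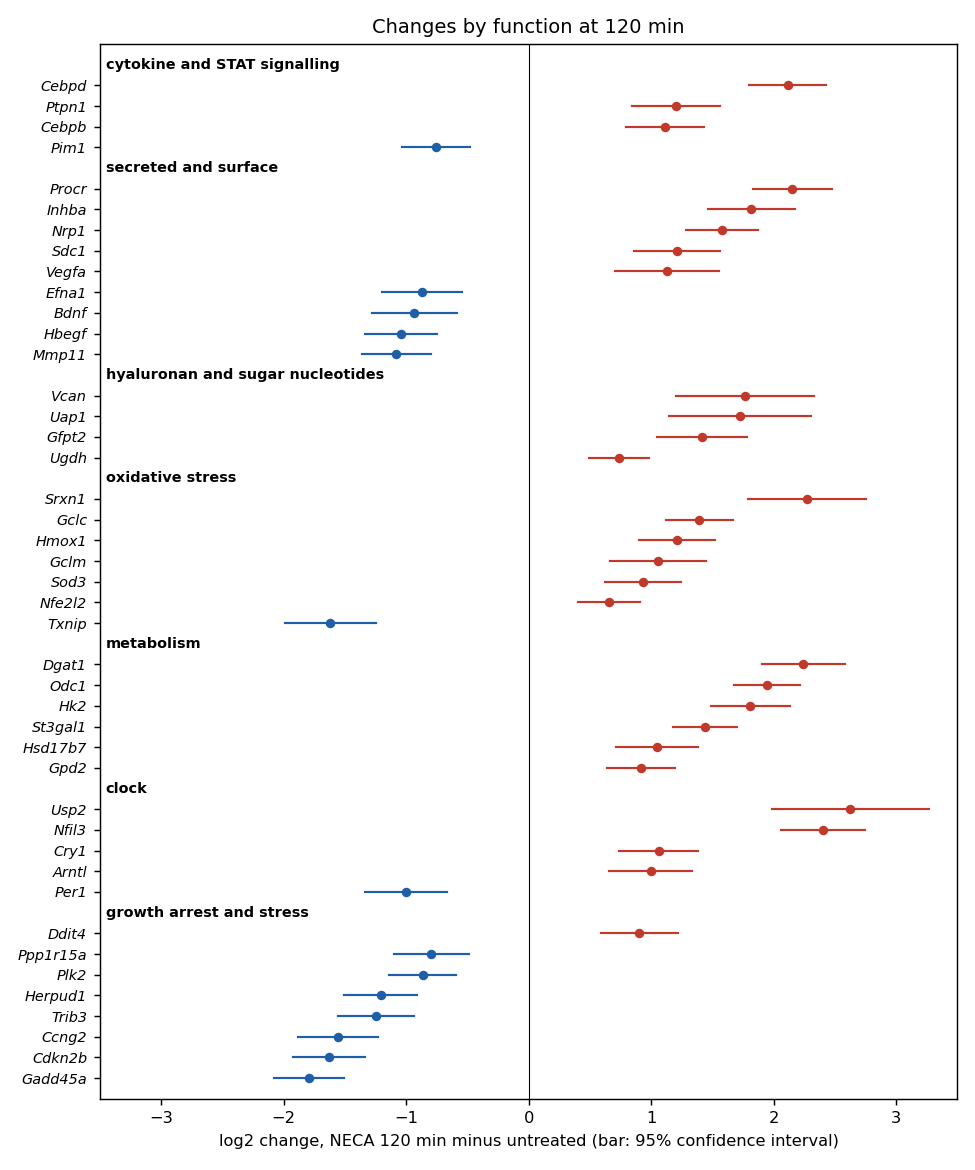
Log2 change at 120 min against untreated (x axis) with its 95% confidence interval for named genes grouped by function; red points rose and blue points fell. The genes are a selection of those that changed and not whole lists (Abca1 and Adm, which fell, are not drawn); Vcan (1.77) and Gclc (1.39) lie above 0 and Txnip (-1.62) below.

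A mixed list held oxidative stress genes and genes of the type that the factor NRF2 controls. Of its 28 tested members, 9 rose and 1 fell (median 0.19), against 1.97% and 1.75% of all named genes. Gclc, the catalytic subunit that limits glutathione synthesis, went from 149, 139 and 149 to 364, 414 and 413 (1.39 ± 0.13, adjusted p = 3.06e-05), and its partner Gclm from 174, 123 and 142 to 273, 269.6 and 399 (1.05 ± 0.18, adjusted p = 0.00548, and 0.0702 with the Gapdh covariate). Hmox1, which breaks down heme, went from 403, 482 and 466 to 1019.7, 925 and 1231 (1.21 ± 0.14, adjusted p = 0.00033). In these 3 genes, as in every called probe set, the groups did not overlap.

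Srxn1, which restores oxidised peroxiredoxins, rose from 66.9, 97.2 and 97.7 to 411, 425 and 509.9 (2.27 ± 0.22), but its other probe set, at -0.59, pointed the other way without passing. The extracellular superoxide dismutase gene Sod3 rose by 0.93 ± 0.14, and Nfe2l2, which encodes NRF2, by 0.66 ± 0.12 (adjusted p = 0.00701). The metallothionein genes Mt1 (0.72 ± 0.16) and Mt2 (0.60 ± 0.13) and the thioredoxin reductase gene Txnrd1 (0.60 ± 0.14) passed less firmly. Mt1 lost its call without any 1 untreated or 120 min array, Mt2 without U1 or U2 or any 1 of the 120 min arrays, and Txnrd1 without any 1 untreated array, E1, or T2 or T3 (adjusted p up to 0.146, 0.129 and 0.187). With the Gapdh covariate 5 of the 28 were higher.

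Txnip, an inhibitor of thioredoxin and of glucose uptake, was the member that fell, from 382, 398 and 467 to 132, 99.99 and 164 (-1.62 ± 0.17, adjusted p = 0.000134). Its other probe set, at -0.22 with overlapping groups, did not pass.

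In energy and lipid metabolism, Hk2, the inducible hexokinase, went from 83.5, 71.3 and 93.2 to 319.9, 302 and 303 (1.81 ± 0.15, adjusted p = 1.44e-05). Dgat1, which catalyses the last step of triglyceride synthesis, went from 130.5, 108 and 138 to 555, 695 and 618 (2.24 ± 0.16, adjusted p = 3.08e-06); its other probe set, at 1.40, did not pass. Hsd17b7, an enzyme of sterol synthesis, rose by 1.05 ± 0.15 (adjusted p = 0.00196). Gpd2, of the glycerol phosphate shuttle, rose by 0.92 ± 0.13; it lies outside the rule for named genes and was chosen after its values were seen.

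Of 29 genes for glucose use and the hypoxia response, 4 rose (Hk2, Vegfa, Ddit4 and the lactate carrier gene Slc16a1, 0.86 ± 0.17) and 1 fell (Adm). The call of Slc16a1 was lost without U2 or T1 (adjusted p up to 0.0685). The glucose carrier gene Slc2a1, at 0.77 ± 0.20, did not pass (adjusted p = 0.0582). Of 20 sterol genes 2 rose and 1 fell, with a median of 0.36. Hmgcs1, an early enzyme of that pathway, was at 0.86 ± 0.18 and lost its call without U1 or U2 or any 1 of the 120 min arrays (adjusted p up to 0.107). Abca1, a cholesterol exporter, was at -1.20 ± 0.28 and lost its call without U1 or U2, E1, or T1 or T3 (adjusted p up to 0.167).

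Immediate early genes, which are induced within minutes of a stimulus without new protein, included several of the largest falls at 120 min. Of 20 tested, 8 fell, 2 rose (Nr4a1 and Nr4a2) and 10 did not pass, with a median of -0.41. Fos, a subunit of AP-1, had 354, 243 and 263 in untreated, 715, 757 and 849 at 30 min, and 18.8, 20.9 and 18.6 at 120 min. Its change at 120 min was -3.41 ± 0.15 (adjusted p = 1.16e-07). Thus the 3 arrays at 120 min lay below every untreated array, and every array at 30 min lay above.

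Egr1 and Egr2, zinc finger factors of growth and stress responses, fell from 437, 447 and 493 to 48.9, 28.0 and 53.01 (-3.22 ± 0.19, adjusted p = 6.37e-07) and from 236, 232 and 253 to 31.3, 32.3 and 29.1 (-2.68 ± 0.12, adjusted p = 1.26e-07). Nab2, a corepressor that binds Egr proteins, rose instead, from 130.1, 124 and 128 to 218, 263 and 249 (0.89 ± 0.12, adjusted p = 0.00118). Ier2, a nuclear immediate early protein, went from 441, 434 and 481 to 67.9, 71.0 and 77.3 (-2.52 ± 0.13, adjusted p = 2.66e-07). These 3 falls, like every called change, left no overlap between groups.

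Btg2, an antiproliferative factor that promotes shortening of mRNA tails, fell from 501, 543 and 585 to 108, 124 and 123 (-2.12 ± 0.12, adjusted p = 6.37e-07). Myc, which drives growth, fell from 237, 180.5 and 229.7 to 87.4, 87.6 and 81.0 (-1.25 ± 0.13, adjusted p = 0.000152). Mnt, a partner of Max that opposes Myc, fell as well, from 62.4, 46.9 and 58.7 to 5.73, 6.76 and 8.26 (-2.10 ± 0.18, adjusted p = 1.9e-05). Junb of AP-1 and Klf6 of the Krüppel-like factors fell by 0.95 (SE 0.17) and 1.35 (SE 0.24) on the log2 scale (adjusted p = 0.00835 and 0.00762), with adjusted p-values of 0.0623 and 0.0966 under the Gapdh covariate.

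**Figure D4:**
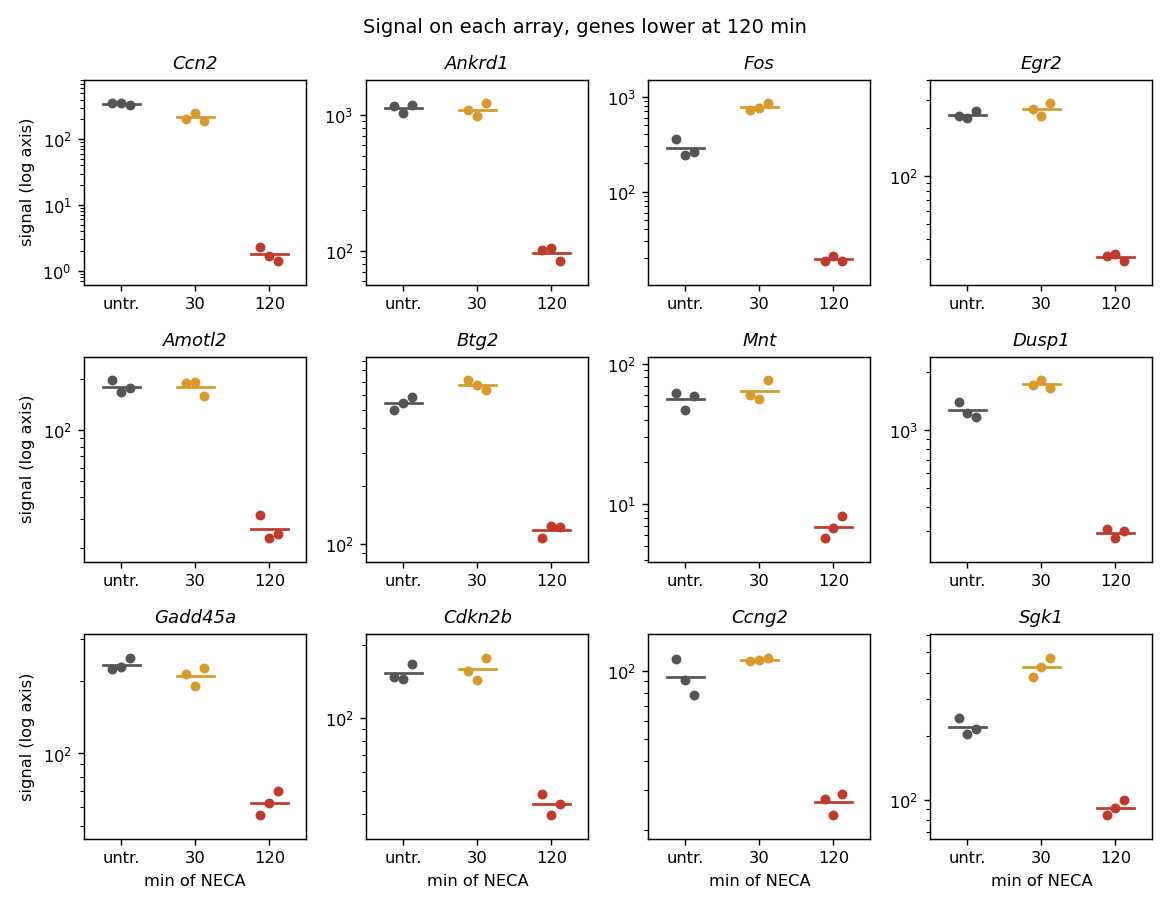
Deposited signal (log axis, scale set for each gene) on every array of untreated cells (grey), cells with NECA for 30 min (orange) and for 120 min (red); points are arrays and bars are means of 3. All red points lie below all grey points in the 12 genes, and for Fos and Sgk1 the orange points lie above the grey ones.

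The largest falls were in genes that YAP and TEAD, effectors of the Hippo pathway, are known to activate. Ccn2 and Ccn1, matricellular proteins, went from 352, 352 and 329 to 2.26, 1.69 and 1.40 (-5.18 ± 0.14, adjusted p = 1.3e-09) and from 418, 300.4 and 388 to 20.9, 10.5 and 7.87 (-4.20 ± 0.21, adjusted p = 2.66e-07). Ankrd1, an ankyrin repeat cofactor, went from 1151, 1029.6 and 1169 to 101, 105 and 84.5 (-3.43 ± 0.13, adjusted p = 4.26e-08). Amotl2, which binds and restrains YAP, went from 197, 168 and 179 to 31.3, 23.0 and 24.2 (-2.48 ± 0.14, adjusted p = 6.37e-07). At 30 min Ankrd1 was at -0.04 against untreated.

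With F3, given above with the coagulation genes, 5 of the 16 tested members of this list fell, 0 rose and 11 did not pass, with a median of -0.39. The largest negative change among those that did not pass was that of the kinase gene Lats2, at -0.59 ± 0.16 (adjusted p = 0.0824). On a list of 29 tested genes of the actin cytoskeleton and other SRF targets, 0 passed in either direction. Their changes ran from -0.67 to 0.28, with a median of -0.17. This list does not hold Fos, Egr1, Egr2, Ccn1 or Ankrd1, so its count does not cover every SRF target. Rhob, a small GTPase of endosomes, fell from 327, 264 and 262 to 121, 160.3 and 167 (-0.90 ± 0.17, adjusted p = 0.0109), lost without U1 (adjusted p = 0.0671).

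Inhibitors that limit MAP kinase signalling and unstable mRNAs were divided, with 3 of 13 higher and 4 lower. Dusp1, a phosphatase that inactivates MAP kinases, fell from 1395, 1222 and 1169 to 306, 276 and 300.5 (-2.07 ± 0.11, adjusted p = 6.37e-07). Zfp36 and Zfp36l2, which bind AU-rich elements and promote mRNA decay, fell by 0.98 (SE 0.15) and 1.74 (SE 0.24) on the log2 scale (adjusted p = 0.00313 and 0.00108). The other probe set of Zfp36l2, at -0.26 with overlapping groups, did not pass. Zfp36l1, the third of the family, was at -0.72 ± 0.16 and lost its call without U1 or U2 or any 1 of the 120 min arrays (adjusted p up to 0.139).

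Ier3, which modulates ERK signalling and survival, rose from 789, 983 and 971 to 1535, 1683 and 1613 (0.82 ± 0.12, adjusted p = 0.00159). Errfi1, an inhibitor of the EGF receptor, rose by 0.91 ± 0.17 (adjusted p = 0.0105), lost without U2 (adjusted p = 0.0664). With Rgs2 these were the rises of the list. Sgk1, a kinase that glucocorticoids and cAMP induce, fell from 245, 205 and 216 to 84.5, 91.0 and 99.7 (-1.20 ± 0.13, adjusted p = 0.000231). Of 18 genes that respond to glucocorticoids in many cells, 5 rose and 4 fell, so they had no common direction here.

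Some growth arrest and stress genes fell, while most of these lists did not pass. Gadd45a, a stress sensor that slows the cell cycle, fell from 224, 229 and 251 to 55.3, 62.3 and 69.6 (-1.79 ± 0.13, adjusted p = 5.1e-06). Cdkn2b, an inhibitor of Cdk4, fell from 147, 145 and 167 to 48.4, 39.7 and 44.3 (-1.63 ± 0.13, adjusted p = 1.44e-05), and Ccng2, an atypical cyclin of quiescent cells, from 112, 91.1 and 78.6 to 27.5, 23.2 and 28.8 (-1.56 ± 0.15, adjusted p = 5.63e-05). Plk2, a kinase induced by stress and activity, fell from 1288, 1569 and 1488 to 806, 773 and 789 (-0.87 ± 0.13, adjusted p = 0.00174).

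Of 21 growth arrest, DNA damage and p53 target genes, 5 fell and 1 rose. The further falls were Sesn1 (-0.69 ± 0.12, adjusted p = 0.00799, and 0.104 with the Gapdh covariate) and Gadd45g (-0.80 ± 0.16), which lost its call without U2 or U3 or T2 or T3 (adjusted p up to 0.0792). The rise was Ddit4, an inhibitor of mTOR complex 1, from 267, 232 and 305 to 469, 485 and 567 (0.90 ± 0.14, adjusted p = 0.00341, and 0.0529 with the Gapdh covariate). Of 38 cyclin, Cdk and replication genes, Cdkn2b was the only one that passed, and of 23 apoptosis regulators 0 did. The list of cyclin, Cdk and replication genes does not hold Ccng2 or the kinase gene Wee1, which also fell.

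The unfolded protein and integrated stress response list had 6 of 25 members lower and 0 higher (median -0.21). Herpud1, which helps degrade proteins of the endoplasmic reticulum, fell from 198, 165 and 179 to 67.5, 79.7 and 73.6 (-1.21 ± 0.14, adjusted p = 0.000266). Trib3, a pseudokinase that ATF4 induces, fell from 155, 153 and 179 to 66.8, 64.2 and 60.6 (-1.24 ± 0.14, adjusted p = 0.00027), and Ppp1r15a, which directs dephosphorylation of eIF2, by 0.79 on the log2 scale (SE 0.14, adjusted p = 0.00678). For the other 3 the call depended on single arrays. The kinase gene Eif2ak4 (-1.05 ± 0.19) lost it without U1 (adjusted p = 0.0604), and the stress factor gene Ddit3 (-0.73 ± 0.16) without any 1 untreated array or T1 or T2 (adjusted p up to 0.0974). Pdia3, a disulfide isomerase (-1.10 ± 0.27), lost it without any 1 untreated or 120 min array or E3 (adjusted p up to 0.203).

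Trophic ligands of the EGF and neurotrophin type fell or did not pass, with 3 of 14 lower, 0 higher and a median of -0.47. Their changes ran from -1.04 to 0.90, so not all members pointed down. Hbegf, a membrane-bound ligand of the EGF receptor, went from 184, 178 and 218 to 93.4, 90.7 and 84.9 (-1.04 ± 0.13, adjusted p = 0.000681). Bdnf, a neurotrophin, went from 174, 139 and 138 to 80.3, 65.7 and 78.4 (-0.93 ± 0.16, adjusted p = 0.00548). Neither had overlapping groups, as held for every called probe set. Gdnf, a ligand of the receptor Ret, was at -0.92 ± 0.19 and lost its call without any 1 untreated or 120 min array (adjusted p up to 0.0892), and its other probe set, at -0.47, did not pass. Mmp11, a secreted metalloproteinase, and Efna1, a ligand of Eph receptors, also fell, by 1.08 (SE 0.13) and 0.87 (SE 0.15) on the log2 scale (adjusted p = 0.000402 and 0.0057).

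Clock genes changed in both directions, with 4 of 16 higher and 2 lower. Beside Nfil3, Cry1, a repressor of the clock loop, rose from 95.5, 107 and 102 to 177, 234 and 255 (1.06 ± 0.15, adjusted p = 0.00121), and Arntl, which encodes the activator BMAL1, from 67.0, 76.4 and 54.8 to 153, 131 and 133 (0.99 ± 0.15, adjusted p = 0.00267). Per1, a repressor that light and cAMP induce, fell from 76.1, 60.9 and 79.8 to 27.9, 33.5 and 34.8 (-1.0 ± 0.15, adjusted p = 0.0025). The fourth rise was Usp2, a deubiquitinase with a daily rhythm, from 17.4, 14.7 and 51.0 to 183, 180.0 and 213 (2.62 ± 0.29), though its other probe set, at 0.11, did not pass. The other fall was Nr1d1, given above.

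**Figure D5:**
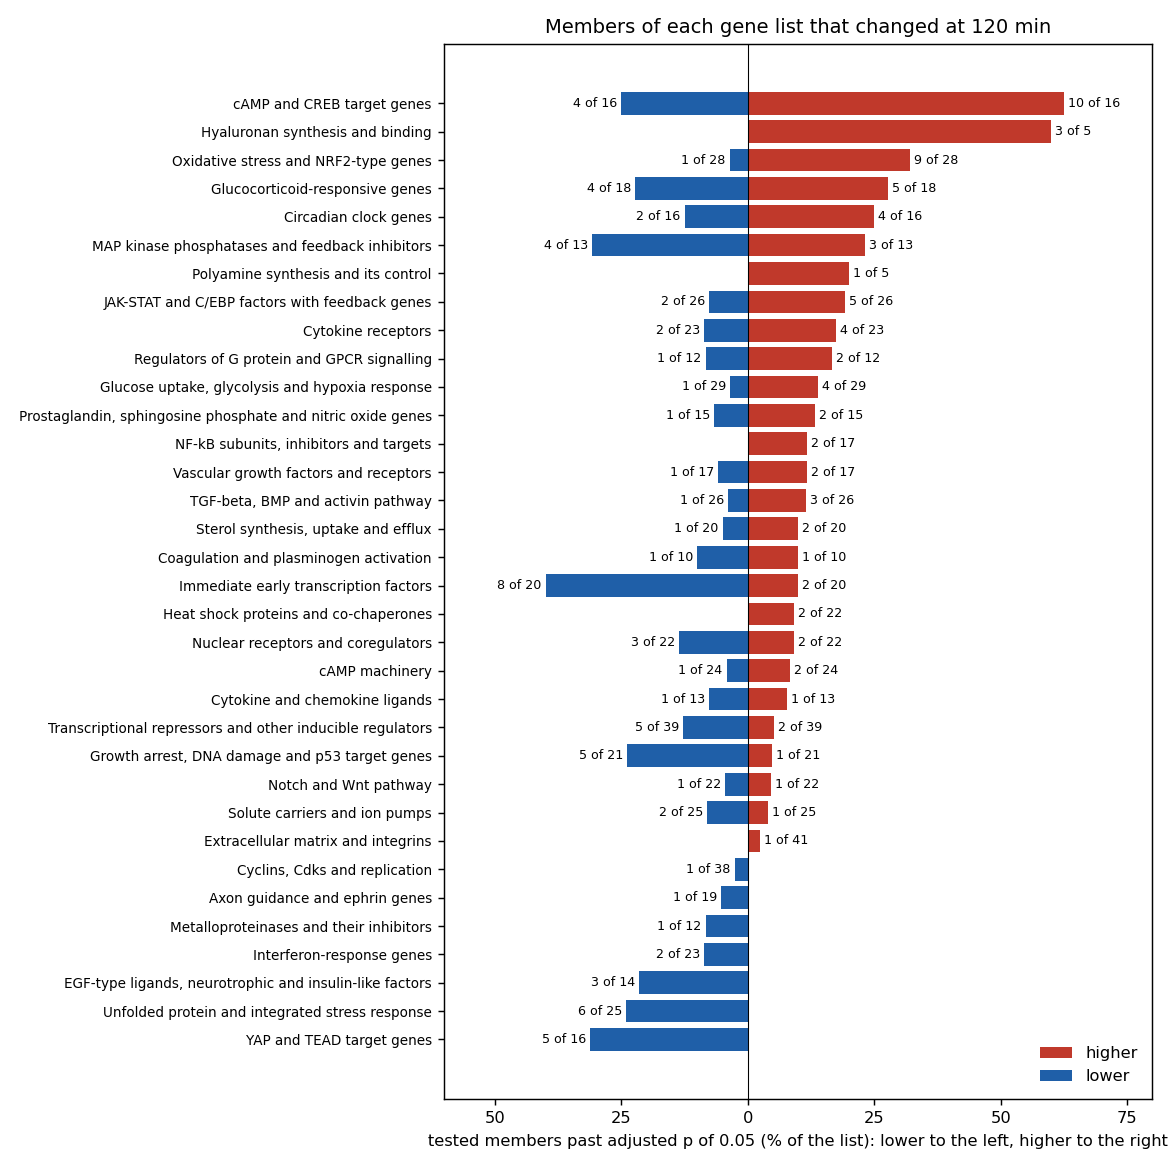
Bars show, for gene lists with at least 1 changed member, the percentage of its tested members that rose (right, red) or fell (left, blue) at an adjusted p under 0.05, with the counts beside them; lists share genes. The list of cAMP and CREB targets, which does not hold Fos, Egr1, Ier2 or Btg2, has the longest bar to the right (10 of 16). Immediate early factors have the longest to the left (8 of 20).

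Further transcription factors and signalling genes stood among the largest changes in each direction. Nfatc1, a calcium-regulated factor, rose from 27.2, 26.6 and 16.0 to 100.1, 86.1 and 150.0 (1.93 ± 0.23, adjusted p = 0.000401), and Bag3, a co-chaperone of Hsp70, from 279, 200.4 and 266 to 674, 717 and 640.3 (1.43 ± 0.14, adjusted p = 7.89e-05). Pkdcc, a secreted tyrosine kinase, and Cdr2, a cytoplasmic antigen of cerebellar degeneration, rose by 1.502 ± 0.18 and 1.55 ± 0.19. On the other side Tec, a cytoplasmic tyrosine kinase, fell from 79.6, 87.9 and 113 to 14.1, 28.8 and 32.5 (-1.65 ± 0.22, adjusted p = 0.000907), and Rin2, an exchange factor for Rab5, from 192, 132 and 182 to 46.3, 71.9 and 47.9 (-1.49 ± 0.19, adjusted p = 0.000599). Snai2, a repressor of epithelial genes, fell from 443, 432 and 335 to 192, 140.3 and 172 (-1.22 ± 0.16, adjusted p = 0.00097).

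Phldb2, which anchors microtubules at the cell cortex, and Hmga2, a chromatin protein, fell by 1.42 (SE 0.24) and 1.56 (SE 0.28) on the log2 scale, with adjusted p-values of 0.00594 and 0.00735 and, with the Gapdh covariate, 0.0566 and 0.0798. Frat2, an activator of Wnt signalling, fell by 1.39 (SE 0.17, adjusted p = 0.000494), while its other probe set, at -0.68, did not pass. Fzd1, a Wnt receptor, rose from 32.1, 39.7 and 30.6 to 87.1, 86.6 and 70.4 (1.09 ± 0.15, adjusted p = 0.00136). Of 22 Notch and Wnt genes it was the 1 that rose, and the Notch ligand Dll1 (-0.99 ± 0.25, adjusted p = 0.0498) the 1 that fell. The call of Dll1 was lost without any 1 array other than U1 (adjusted p up to 0.211).

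In 17 genes that rose, no untreated array was above the filter level of 20.5 and all 3 treated arrays were; in 13 that fell, the reverse held. The first group holds Il6, Socs3, Csf2rb, Rgs2, Ackr3, Sphk1, Uap1, Nr4a2 and Ptgs2, and the second Ccn2, F3, Mnt, Phldb2 and Frat2. Since MAS5 detection calls were not used here, these are statements about the signal and not about presence of a transcript. Both counts cover called genes only, and the share of all tested genes that crossed the level this way is not given. The filter admitted a probe set once at least 3 arrays exceeded the level. Genes below it in every untreated array, such as Il6 and Csf2rb, could thus be tested only through their NECA arrays. The counts therefore follow in part from the filter. Of 24 other tested probe sets of genes that rose, 19 had the same sign, 9 were also called higher and 0 lower; of 14 of genes that fell, 13 had the same sign, 2 were called lower and 0 higher.

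Promoter sequences of the members were read from RefSeq, build GRCm38.p6, to show what lies in the 250 bases before the annotated start. Of the 30 largest rises and the 30 largest falls, 24 each had an entry. Motifs were searched on both strands: the full cAMP response element TGACGTCA, its core TGACG (which the full element contains), the CArG box of SRF, GGAATG as a TEAD type site and TGANTCA as an AP-1 type site. The full element was in 0 of these 24 rises and 3 of these 24 falls (Btg2, Dusp1 and Cdkn2b), but in 5 of 97 and 5 of 87 when all genes that rose or fell and had an entry were taken, against 2.90% of the promoters of tested named genes and 1.77% of all 27025 promoters of the table. The core was in 9 of 24 rises and 10 of 24 falls, and in 35 of 97 and 33 of 87 of all, against 31.0% of tested genes and 19.8% of the table. The AP-1 type site was in 7 of 24 rises and 1 of 24 falls, and in 11 of 97 and 8 of 87 of all (6.16% of tested genes and 7.82% of the table). The TEAD type site was in 2 of 24 rises and in 5 of 24 falls (Ccn1, Ankrd1, Egr2, Amotl2 and Rin2), and in 10 of 97 and 9 of 87 of all, against 13.01% and 14.4%. The CArG box was in 1 of 24 rises and 1 of 24 falls, Egr2, and in 3 of 97 and 2 of 87 of all (1.56% and 1.62%). These matches are descriptions of letters in a window and not of bound sites.

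The promoters below belong to the largest rise and to falls of the CREB-target, YAP-target and immediate early groups. The Egr2 promoter was taken by the rule for printed promoters and the others after their matches were seen. Capitals mark an AP-1 type site and, nearer the start, the reverse complement of the core TGACG in Il6, the full cAMP response element in Dusp1 and Btg2, the TEAD type site or its reverse complement in Ccn1 and Ankrd1, and the CArG box in Egr2. Il6 lies at chr5:30012864-30013113 (+ strand), Dusp1 at chr17:26508473-26508722 (- strand), Btg2 at chr1:134079156-134079405 (- strand), Ccn1 at chr3:145649986-145650235 (- strand), Ankrd1 at chr19:36119845-36120094 (- strand) and Egr2 at chr10:67537316-67537565 (+ strand), and each is given 5′ to 3′ toward its gene.
Il6: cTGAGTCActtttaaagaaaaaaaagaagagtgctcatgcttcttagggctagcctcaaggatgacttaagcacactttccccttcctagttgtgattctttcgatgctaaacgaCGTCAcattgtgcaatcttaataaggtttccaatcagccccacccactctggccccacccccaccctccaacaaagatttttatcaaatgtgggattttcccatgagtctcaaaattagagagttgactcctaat
Dusp1: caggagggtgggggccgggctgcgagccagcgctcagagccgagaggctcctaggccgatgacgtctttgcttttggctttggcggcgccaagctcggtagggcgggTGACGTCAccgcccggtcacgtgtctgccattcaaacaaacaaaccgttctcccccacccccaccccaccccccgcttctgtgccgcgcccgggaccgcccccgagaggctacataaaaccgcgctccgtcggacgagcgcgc
Btg2: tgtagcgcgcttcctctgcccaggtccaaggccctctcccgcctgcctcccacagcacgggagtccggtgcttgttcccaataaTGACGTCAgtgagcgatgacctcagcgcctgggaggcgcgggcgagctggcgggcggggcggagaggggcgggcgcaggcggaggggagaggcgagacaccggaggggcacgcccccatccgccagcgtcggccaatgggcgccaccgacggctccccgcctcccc
Ccn1: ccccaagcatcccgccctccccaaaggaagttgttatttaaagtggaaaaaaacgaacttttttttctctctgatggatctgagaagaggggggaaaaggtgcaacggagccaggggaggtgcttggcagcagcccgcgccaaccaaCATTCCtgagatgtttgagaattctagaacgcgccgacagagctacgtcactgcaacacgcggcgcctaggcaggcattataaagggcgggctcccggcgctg
Ankrd1: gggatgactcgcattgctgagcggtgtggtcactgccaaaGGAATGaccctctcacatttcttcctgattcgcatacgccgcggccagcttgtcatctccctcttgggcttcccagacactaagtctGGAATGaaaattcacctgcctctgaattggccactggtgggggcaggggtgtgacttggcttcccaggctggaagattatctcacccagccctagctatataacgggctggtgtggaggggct
Egr2: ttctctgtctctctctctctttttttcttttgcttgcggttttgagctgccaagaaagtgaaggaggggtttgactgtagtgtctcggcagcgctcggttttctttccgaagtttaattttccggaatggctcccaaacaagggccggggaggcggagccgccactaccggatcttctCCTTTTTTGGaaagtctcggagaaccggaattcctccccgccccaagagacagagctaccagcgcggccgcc

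In Dusp1 and Btg2 the full element begins 143 and 166 bases before the start, and in Il6 the marked sites lie 249 and 135 bases before it. Ankrd1 holds the TEAD type site at 210 and 123 bases before its start, and Ccn1 has 1 at 103 bases.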

How the data were processed

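Values are deposited as a linear intensity for each probe set, which the submitters' processing notes call MAS5. No software version is named in the labels. MAS5 as such includes a background correction and a scaling to a common trimmed mean; the deposited 2% trimmed mean was 100.056 to 100.065 on all 9 arrays, so no further scaling was applied. Names come from GEO's platform annotation, which can be old: of 12422 probe sets that are not controls, 10833 had 1 gene symbol, 396 several and 1193 none, and only the first kind was named. Probe set identifiers are those of the array.

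Signals were turned into log2(signal + 7.93), the offset being the 25th percentile of all values. Tests covered the 7851 probe sets that exceeded 20.5 (the 40th percentile) in at least 3 of 9 arrays, which left out 4571. limma 3.58.1 in R 4.3.3 fitted all 9 arrays in 3 groups (lmFit, eBayes with an intensity trend), and the contrast of 120 min minus untreated was two-sided with Benjamini-Hochberg adjustment over all tested probe sets. The number of arrays limits the precision: the median SE of a change was 0.18. P-values weigh the difference of the 2 group means against a spread within groups, estimated over all 9 arrays and moderated by the intensity trend. In a simulation of this comparison over 7851 probe sets, the fit found 18% of 50 log2 changes of size 0.5, 90% of size 1, and 100% of sizes 2 and 3. It called 11 of 7651 probe sets that had no change. The simulated noise was normal and independent between arrays, with the spreads that the fit had estimated. Effects shared across an array were not simulated, so these rates can be better than those of the real arrays.

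A gene is represented by its tested probe set with the highest mean over 9 arrays. Named are the 30 largest rises and falls with groups that do not overlap, the members of 44 gene lists past the threshold or among the 8 smallest p of a list, up to 10 called genes each way that crossed the filter level, and Il6, Vegfa, Gja1 and Adora2b, the last of which was not analysed here. Together the lists name 1265 genes; 1044 have a probe set and 795 were tested. Members and lists were chosen with earlier results of these data known, so list counts are descriptions. Alternatives covered the offset, the filter, the arrays in the fit, quantile normalization, the prior, a replicate block, the Gapdh ratio as a covariate and each array left out. Replicate numbers were checked for pairing by correlating deviations of same-numbered untreated and 120 min arrays from their group means (-0.17, -0.12 and -0.05), so they were not taken as pairs. RefSeq promoters of build GRCm38.p6 were matched by gene identifier. 1 gene list and 1 result are not reported here.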

Additional observations from a re-analysis of the deposited data

Results flagged for a closer look

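For 4 genes that passed both against untreated cells, the change had opposite signs at the 2 times. The difference between 120 and 30 min was then tested with limma. These genes were chosen for their opposite changes on the same arrays. The adjusted p-values of that difference thus follow largely from the choice and add no separate support. Fos was 1.42 ± 0.15 above untreated at 30 min and 3.41 below it at 120 min, a difference of -4.83 ± 0.15 (adjusted p = 4.23e-09). Ier2 was at 0.73 ± 0.13 and -2.52 ± 0.13, a difference of -3.26 ± 0.13 (adjusted p = 2.51e-08). Junb was at 1.11 ± 0.17 and -0.95 ± 0.17, a difference of -2.05 ± 0.17 (adjusted p = 2.1e-05). Sgk1, the kinase gene, was at 0.91 ± 0.13 and -1.20 ± 0.13, a difference of -2.12 ± 0.13 (adjusted p = 1.58e-06). The comparisons of each time with untreated cells share the untreated arrays.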

How the results depend on the processing

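The 144 probe sets higher and 121 lower became 87 and 64 once the Gapdh ratio entered as a covariate. Leaving out 1 array gave from 88 to 182 and from 60 to 135. Under the other 9 alternatives they ranged from 126 to 192 and from 94 to 143. With the replicate block they were 136 and 111. The check of replicate numbers showed no pairing, but it cannot exclude that cultures of the same number were handled together. Of the probe sets, 66 higher and 43 lower were called in every alternative. Over 414 named genes and 19 alternatives, 6973 of 7780 values kept direction and side of the threshold, 746 lost the call, 61 gained it and 0 reversed. The cause was not tested. Signals near the offset limit the fold that could be seen.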

Other observations

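Among called genes on no list, picked after their values were seen, several rose. The tubulin genes Tubb2a and Tubb3 rose by 1.03 ± 0.12 (adjusted p = 0.000266) and 0.94 ± 0.14 (adjusted p = 0.00252). Other probe sets of Tubb2a (-0.35) and Tubb3 (0.02) did not pass, and the sequences are close, so probes of one may report the other. Cdr2l, a relative of Cdr2, went from 227, 264 and 264 to 631, 572 and 666 (1.28 ± 0.16, adjusted p = 0.000442). Pitx1, a homeobox factor of the pituitary lineage, went from 178, 162 and 168 to 399, 367 and 334 (1.08 ± 0.12, adjusted p = 0.000266). The heparan sulfate proteoglycan gene Sdc1 rose by 1.21 ± 0.16 (0.75 on another probe set, not passing), and the secreted protease inhibitor gene Slpi from 1903, 2529 and 2365 to 4129.6, 4034 and 3605 (0.80 ± 0.14, adjusted p = 0.00589), while 3 other Slpi probe sets, at 0.58, 0.14 and 0.06, did not pass.

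Of genes on no list that fell, Wee1, a kinase that delays mitosis, went from 102, 78.2 and 87.9 to 38.6, 37.3 and 41.8 (-1.04 ± 0.14, adjusted p = 0.000773). Tns2, a focal adhesion protein, and Shroom3, which shapes the apical actin network, were at -1.14 ± 0.16 and -1.13 ± 0.16 (adjusted p = 0.00108 and 0.00128). Eif2b2, a subunit of the exchange factor for eIF2, fell from 149, 165 and 162 to 92.3, 86.2 and 74.7 (-0.86 ± 0.14, adjusted p = 0.00357). On the probe sets that represent all these genes the groups did not overlap, as held for every called probe set. Their calls were kept without any 1 array.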
